A study of Homo sapiens with 4 samples.

Results

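Expression of the shelterin genes POT1, TERF1, TERF2, TERF2IP, TINF2 and ACD and of the telomerase genes TERT and DKC1 was examined in THP1 cells depleted of MLL-AF9. Members were all probes that carry one of these 8 gene names, that are no control probes and that have a quality weight above 0 on every array. This gave 12 probes on 21 spots, out of 26219 analysed probes with 20654 gene names. TERF1 was represented by 5 probes and the other 7 genes by 1 probe each. The TERT probe was printed on 10 spots.

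Telomeres are the repeat tracts that cap chromosome ends. Shelterin is the protein complex that binds these repeats and keeps the ends from being treated as DNA breaks. TERF1 and TERF2 bind the double-stranded repeats, TERF2IP (RAP1) joins TERF2, TINF2 bridges both binders, and ACD (TPP1) ties POT1 to TINF2. POT1 covers the single-stranded overhang. Telomerase extends that overhang, with TERT as its reverse transcriptase, TERC as its RNA template and DKC1 as the pseudouridine synthase that holds the RNA in a stable particle. Telomerase activity is a common feature of leukemia cells.

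THP1 is an established cell line of acute monocytic leukemia (M5) which carries the MLL-AF9 fusion. Knockdown cells received siRNA-A or siRNA-B, each directed at the fusion point of the transcript, and control cells received one of 2 non-targeting siRNAs, named control siRNA-1 and control siRNA-2. All cells were transfected on days 0, 3 and 6, were moved to medium with little serum on day 6 and were harvested on day 8. Each single-colour Agilent array held RNA pooled from 5 experiments, and 2 knockdown arrays were compared with 2 control arrays. The pools reduce the spread between experiments, so p-values measure only the spread between these arrays, and each siRNA was seen on 1 array.

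All 4 arrays lay on 1 slide, with knockdown at positions 1 and 2 and control at positions 3 and 4, so treatment and position cannot be told apart. Spots well above background made up 71.2% with siRNA-A and 70.0% with siRNA-B, against 74.3% on each control array. The cause of this lower share on the knockdown arrays was not tested. On every array 0% of spots were saturated. The probe named MLLT3, the gene also called AF9 whose 3′ part lies in the fusion, had log2 intensities of 6.82 with siRNA-A and 6.87 with siRNA-B against 7.59 and 7.61 in the controls. Of the monocytic markers, 6 of 7 had an analysed probe, and all 6 were well above background on every array. Of these 6, 1 was called, CD14, a surface marker of monocytes, which was higher after knockdown (log2 fold change 1.05). The log2 fold change was below 0 in 4 of the 6 (CD33, SPI1, CEBPA and MPO) and the median was -0.030. Of 9 measured markers of other cell types, those of B cells (MS4A1) and red cells (HBB) were near background, and 7 were well above background on every array. In limma 0 of these 9 were called, against 1.32% of all probes, and 2 had an unadjusted p under 0.05, against 8.05%. Both knockdown arrays were above both controls in 5 of the 9, against 15.2% of all probes. Their part in the results was not tested. As bulk RNA was measured, fewer cells expressing a gene and less RNA per cell cannot be told apart.

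The POT1 probe A_33_P3882624 is shown because the single change among the members rests on it. It lies on the minus strand of chromosome 7 at chr7:124493061-124493120 (hg19). It has 60 bases, of which 45% are G or C, and its annotation names 2 mRNA and 2 non-coding variants of POT1. No gene model of hg19 was used here, so its exon is not given. RefSeq also lists an antisense gene named after POT1. The sequence printed on the array, 5′ to 3′ and without any part marked, is:

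A_33_P3882624: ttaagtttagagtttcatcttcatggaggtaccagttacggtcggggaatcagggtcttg

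POT1 was lower after knockdown of MLL-AF9 with either siRNA. The spot had an intensity of 285 with siRNA-A and 277 with siRNA-B, against 593 with control siRNA-1 and 489.5 with control siRNA-2. Both knockdown arrays were thus below both control arrays, and the gap between the groups was wider than the gap between the controls. Within the spot, the SD over 63 or 64 pixels was 45.9 and 51.0 on the knockdown arrays and 81.5 and 67.9 on the control arrays. After the background subtraction of the scanner software, the signals were 291 and 274 against 643 and 555. The order of the arrays was the same on both scales.

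On the log2 scale the means were 8.13 ± 0.029 (SD, n = 2) after knockdown and 9.07 ± 0.20 (SD, n = 2) in controls. This is a log2 fold change of -0.94 with an SE of 0.13 and a 95% interval from -1.23 to -0.65, or 52.2% of the control level. In limma the unadjusted p was 5.2e-05 and the adjusted p over all probes 0.0454. By unadjusted p, POT1 was at rank 30 of all probes. Each siRNA gave a similar value against each control. The log2 difference from control siRNA-1 was -1.06 for siRNA-A and -1.10 for siRNA-B, and from control siRNA-2 it was -0.78 and -0.82.

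The call at an unadjusted p under 0.005 held in 10 of 12 alternative fits. Leaving out the siRNA-B array ended it, at a log2 fold change of -0.92, as did leaving out the siRNA-A array, at -0.96 (limma, adjusted p = 0.511 and adjusted p = 0.519). In these fits a lone knockdown array takes its spread from the controls. The adjusted p was between 0.233 and 0.556 under another signal or normalization and between 0.0170 and 1 over all 12 alternatives.

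**Figure D1:**
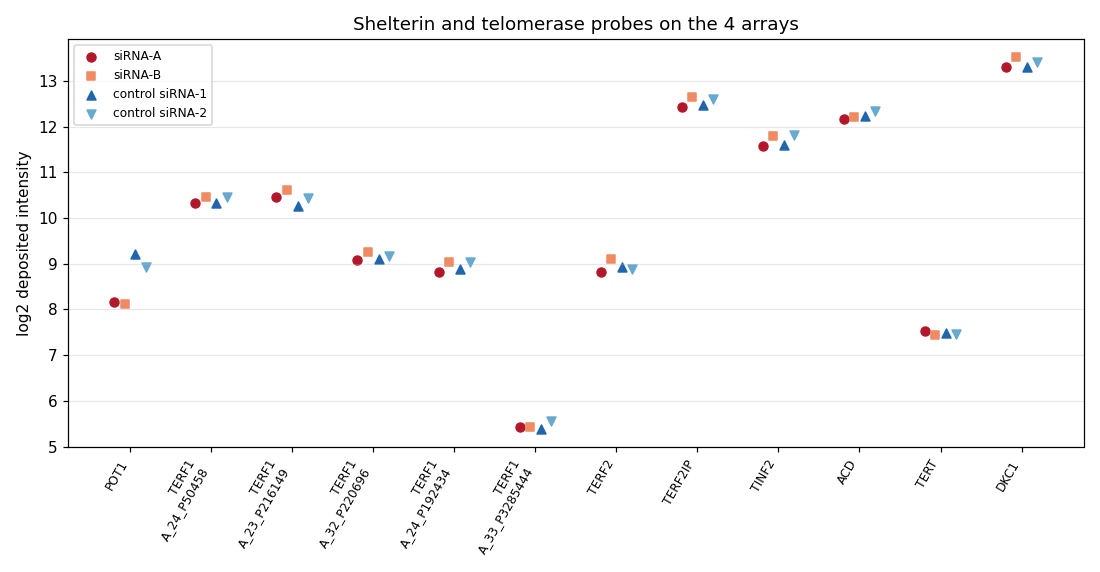
Log2 deposited intensity (vertical axis) of the 12 probes of the shelterin and telomerase genes, 1 point per array, with 2 knockdown arrays in red shades and 2 control arrays in blue shades. The POT1 points split into 8.15 and 8.11 after knockdown and 9.21 and 8.94 in controls, while the other probes lie close together on the 4 arrays. Levels of different probes are not comparable with each other.

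POT1 was the single member called. Over all probes, 1.32% were called at an unadjusted p under 0.005, made up of 0.736% of all probes that were lower and 0.584% that were higher after knockdown, and among the members it was 1 of 12 probes, POT1, which was lower. At an adjusted p under 0.05 it was again 1 of 12, against 0.118% of all probes. The paper on these arrays had already listed POT1 as down-regulated. The shares of called probes are thus a description and no test of the members. Groups that did not overlap were found for 3 of the 12 probes, against 36.6% of all probes, and whether these shares differ was not tested. These were POT1 and ACD with both knockdown arrays below the controls (21.4% of all probes), and 1 probe of TERF1 with both above (15.2% of all probes). The median log2 fold change of the 12 probes was -0.0055, that of all probes -0.018.

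Of the other 11 probes, 10 were well above background on every array, and the TERF1 probe A_33_P3285444 was not and is left out here. The 10 had log2 fold changes between -0.091 and 0.19, with a median of 0.0036. Their 95% intervals reached from 78.7% of the control level at the lowest to 138% at the highest. The log2 fold change of POT1 lay outside each of these 10 intervals. Per array, POT1 was also set against each of the 10 probes. The log2 fold change of POT1 minus that of the other probe was between -1.13 and -0.85, and the knockdown and control arrays did not overlap in 10 of 10 of these differences. All 10 hold the same POT1 values, whose groups were already apart. They are thus not separate results and add no support to the decrease of POT1. The exact permutation p was 0.333 for each, adjusted over the 10 pairs 0.333, which is the smallest that 2 arrays against 2 can give.

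**Figure D2:**
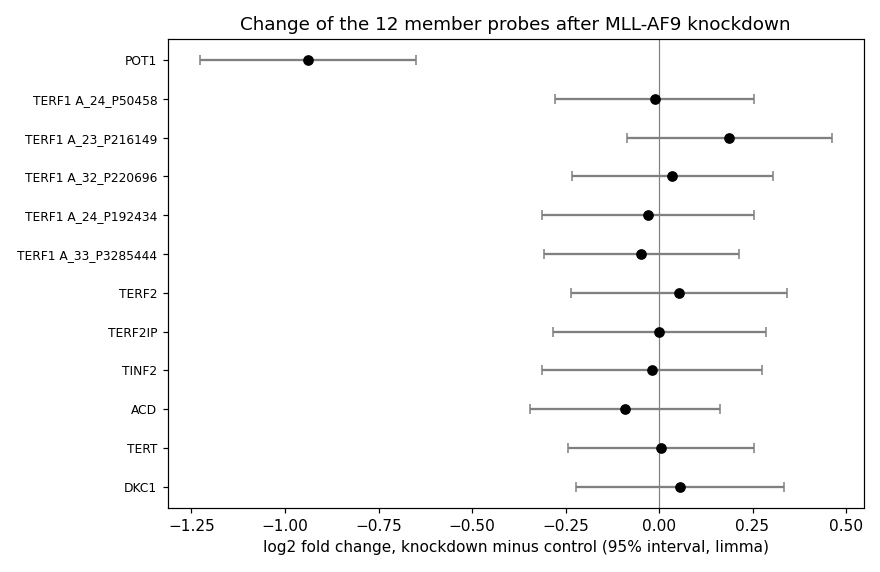
Log2 fold change of knockdown minus control for the 12 member probes (horizontal axis), with points for the limma estimate and bars for its 95% interval. The interval of POT1 runs from -1.23 to -0.65 and those of the 10 other probes well above background include 0. The change of A_33_P3285444, near background, is not read.

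TERF1, the double-strand binder that also limits telomere elongation, was measured by 5 probes on chromosome 8. They span 15505 bases from 73944301 to 73959805 (hg19), and 1 neighbouring pair shares 6 bases. The probe A_24_P50458 had log2 intensities of 10.32 and 10.46 after knockdown and 10.34 and 10.47 in controls, a log2 fold change of -0.012 (95% interval -0.28 to 0.25). The arrays of the groups interleaved. A_23_P216149 had 10.47 and 10.62 against 10.27 and 10.44, the only TERF1 probe with both knockdown arrays above both controls, at a log2 fold change of 0.19 (SE 0.12, limma adjusted p = 0.762), which was not called. The probes A_32_P220696 and A_24_P192434 gave log2 fold changes of 0.035 and -0.030. A_33_P3285444 passed the scanner's background test on 1 control array and on 0 of the knockdown arrays, so its change was not read.

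Between the 4 TERF1 probes well above background on every array, the widest difference in log2 fold change was 0.218, between A_23_P216149 and A_24_P192434. Of their 6 pairs, 4 had differences that did not overlap between the groups, with an exact permutation p of 0.333 and an adjusted p of 0.500. That p is the smallest that 2 arrays against 2 can give. The pairs share probes, and no such share was computed over other pairs of probes. The count is therefore not read as a difference between the probes. RefSeq lists 7 pseudogenes named after TERF1, and to what extent they add to the signal was not tested.

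TERF2, which shapes the protective loop at the chromosome end, had log2 intensities of 8.82 with siRNA-A and 9.10 with siRNA-B, against 8.92 and 8.89 in controls. The knockdown arrays lay on either side of the controls. Its probe on chromosome 16 (69390141 to 69390200, hg19) gave a log2 fold change of 0.054 (SE 0.13, 95% interval -0.24 to 0.34). The probe of its partner TERF2IP, also on chromosome 16 (75691037 to 75691096), had 12.42 and 12.66 against 12.48 and 12.60. This was a log2 fold change of 0.0011 (95% interval -0.28 to 0.29), with the controls inside the range of the knockdown arrays. RefSeq lists 1 pseudogene of TERF2IP.

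TINF2, the bridge between TERF1 and TERF2, was read by a probe on chromosome 14 (24709003 to 24709062, hg19). Its log2 intensities were 11.59 and 11.79 after knockdown and 11.60 and 11.82 in controls, with a log2 fold change of -0.019 (95% interval -0.31 to 0.27). The 4 arrays alternated between the groups. ACD, the direct partner of POT1 which also recruits telomerase, was read on chromosome 16 (67691428 to 67691487). Its log2 intensities were 12.18 and 12.21 after knockdown and 12.22 and 12.35 in controls. Both knockdown arrays were lower, but the log2 fold change of -0.091 (SE 0.11, limma adjusted p = 0.890) was not called.

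TERT, the catalytic subunit, was read by a probe on chromosome 5 (1253305 to 1253364, hg19) which was printed 10 times on each array. The lowest, median and highest intensities of the 10 spots were 156, 184 and 230 with siRNA-A and 145, 166 and 210 with siRNA-B. In the controls they were 154, 173 and 211 with control siRNA-1 and 148, 175 and 202.5 with control siRNA-2. The ranges of the 4 arrays overlapped widely. All 10 spots were well above background on every array.

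The mean of the TERT spots gave a log2 fold change of 0.0060 (SE 0.11, 95% interval -0.24 to 0.25). Taken singly, the spots gave log2 fold changes from -0.10 to 0.19, of which 5 were below and 5 above 0. The SD between these 10 values was 0.083. Each value is a difference of group means at 1 spot position, so this SD is not the error of a single spot. Within an array, the SD of log2 intensity between the 10 spots was between 0.15 and 0.21. The spots repeat a measurement of the same RNA, so neither SD says anything on the spread between cultures. The POT1 probe was present on 1 spot and had no such repeat.

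**Figure D3:**
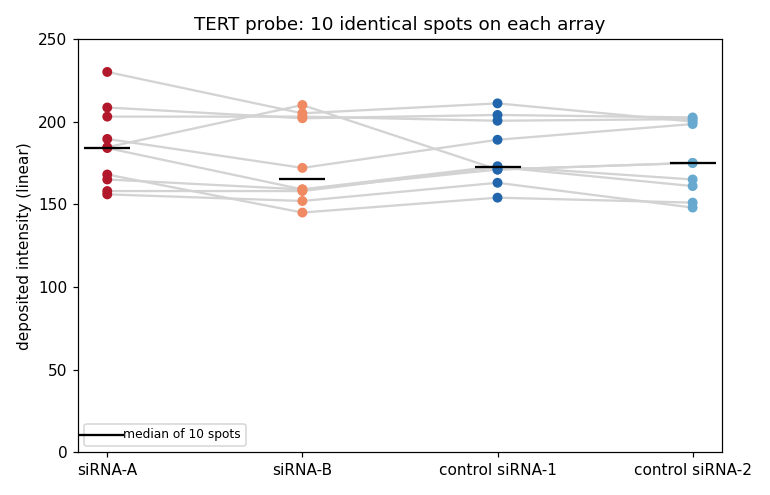
Deposited intensity (vertical axis, linear) of the 10 identical TERT spots on each of the 4 arrays, with grey lines joining the same spot and a black bar at the median. The medians of 184, 166, 173 and 175 lie within the spread of spots on every array.

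DKC1, which binds the telomerase RNA and other H/ACA RNAs, was read on the X chromosome (154005587 to 154005646, hg19). Its log2 intensities were 13.31 and 13.52 after knockdown and 13.30 and 13.42 in controls. The log2 fold change was 0.056 (SE 0.12, 95% interval -0.22 to 0.33), and the groups overlapped.

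In the members that were not called, siRNA-A was below siRNA-B in 9 of the 10 probes well above background, by a median of 0.20 on the log2 scale, and control siRNA-1 was below control siRNA-2 in 8 of 10, by a median of 0.12. Over all probes the same medians were 0.060 and 0.062, and the lower array was the same in 16182 and 17557 of the 26219 probes, and in 69.2% and 76.6% of those with a mean log2 intensity over 8. Most probes thus had this order, and 4 of the 10 are probes of TERF1. POT1 did not follow this order, with siRNA-A above siRNA-B and control siRNA-1 above control siRNA-2.

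Beyond the members, 51 genes of telomere biology were examined by their brightest probe, which was well above background on every array for all 51. In limma, 0 of 51 were called, against 1.32% of all probes, and 3 had an unadjusted p under 0.05, against 8.05% of all probes. These were WRAP53, PARN and PRIM2, and 0 had an adjusted p under 0.05. The log2 fold change was below 0 in 33 and above 0 in 18, with a median of -0.047. Over all probes 55.5% were below 0.

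Among 13 genes of telomerase RNA and its particle, 8 were below and 5 above 0, with a median log2 fold change of -0.013. The widest decrease was that of TERC, the telomerase RNA, with log2 intensities of 9.57 with siRNA-A and 8.65 with siRNA-B, against 9.57 and 9.72 in controls. TERC was thus low on the siRNA-B array alone, and its log2 fold change of -0.53 (SE 0.25, limma adjusted p = 0.661) was not called. Without siRNA-A it was called at -0.99. WRAP53, which guides the particle to Cajal bodies, had 6.85 and 6.94 against 6.56 and 6.70, a log2 fold change of 0.27 (limma adjusted p = 0.614), and PARN, a deadenylase that trims the telomerase RNA, had -0.35 (limma adjusted p = 0.536). Neither was called.

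Of 11 genes of the CST complex and of end replication, which refill the complementary strand after telomerase, 8 were below and 3 above 0, with a median of -0.082. PRIM2, the large primase subunit, had log2 intensities of 10.77 with siRNA-A and 11.49 with siRNA-B, against 11.60 and 11.67 in controls. Its log2 fold change of -0.50 (SE 0.20, limma adjusted p = 0.596) was not called and was carried mainly by siRNA-A. Without siRNA-B it was called at -0.86. Other PRIM2 probes gave -0.23 and -0.097. The widest increase in this list was 0.19 for CTC1, the large CST subunit (limma adjusted p = 0.810).

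Of 19 genes of telomere processing, 13 were below and 6 above 0, with a median of -0.037. Their extremes were XRCC5, the Ku80 end-binding protein, at -0.18, and the helicase PIF1 at 0.24. Of 8 genes of telomeric chromatin, 4 were below and 4 above 0, with extremes of -0.14 for the nuclear receptor NR2C2 and 0.14 for the brightest probe of HMBOX1, a homeobox protein that binds the telomeric repeat. Beside these lists, 11 proliferation genes were read, as telomerase expression is tied to cell division in many tissues. Of these, 0 were called in limma, against 1.32% of all probes, and 0 had an unadjusted p under 0.05, against 8.05%. With 11 genes these counts are not read as a result. Their log2 fold changes lay between -0.085 and 0.16.

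**Figure D4:**
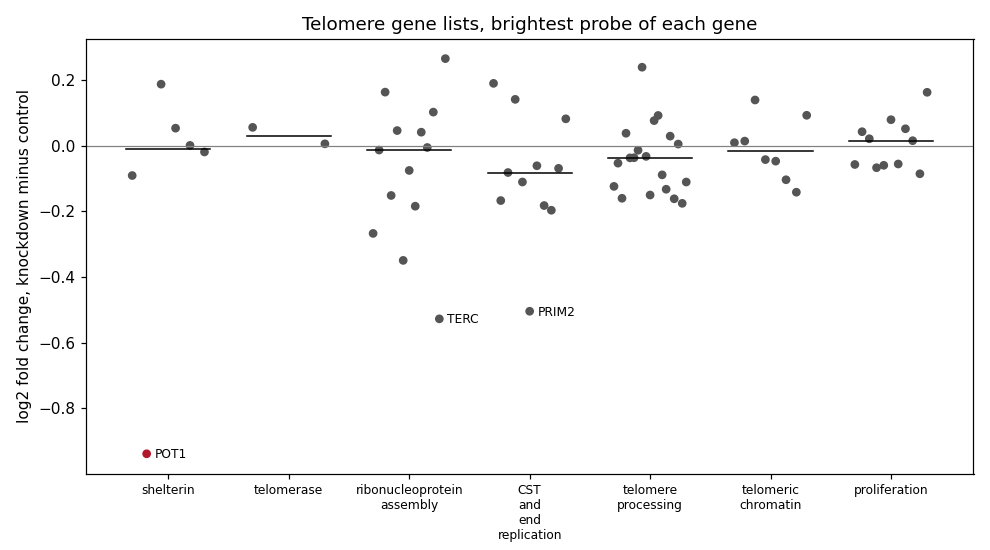
Log2 fold change of knockdown minus control (vertical axis) for the brightest probe of each gene in 7 lists, with 1 point per gene, a black line at the median of each list and red for a gene called at an unadjusted p under 0.005. POT1 at -0.94 is the only red point, and TERC at -0.53 and PRIM2 at -0.50 lie next.

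The probes whose profile over the 4 arrays was most like that of POT1 were taken from 21958 probes with a gene symbol, by the Euclidean distance between log2 intensities after removing each probe's mean. The closest were HMBOX1 (A_24_P932736, distance 0.279), LOC645752 (0.286), MLLT3 (0.289), C10orf140 (0.289) and NDUFA4 (0.292). They are a description over 4 arrays, where many probes have such a profile, and 91 probes had a Pearson r over 0.99 with POT1. The 5 closest by Pearson r shared 0 probes with these. LOC645752 passed the scanner's background test on both control arrays and on 0 of the knockdown arrays.

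HMBOX1 belongs to the list of telomeric chromatin, and its probe most like POT1 is not its brightest. A_24_P932736 (chromosome 8, 28910462 to 28910521, hg19) had log2 intensities of 5.95 and 6.07 after knockdown and 6.91 and 7.0 in controls. Both knockdown arrays were below both controls, with a log2 fold change of -0.95 or 51.9% of the control level. This probe was chosen from 21958 for its likeness to POT1, so its decrease is a description with no test. Its log2 fold change was between -1.55 and -0.70 under the alternatives. The other 3 HMBOX1 probes gave log2 fold changes of 0.066, 0.12 and 0.14. The brightest, A_23_P134684, had 12.77 and 12.83 against 12.58 and 12.75.

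The log2 fold change of A_24_P932736 minus that of the other 3 HMBOX1 probes was -1.01, -1.06 and -1.09. These differences carry the same choice and were not tested. For POT1, with 1 probe, such a comparison between probes of the gene could not be made.

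**Figure D5:**
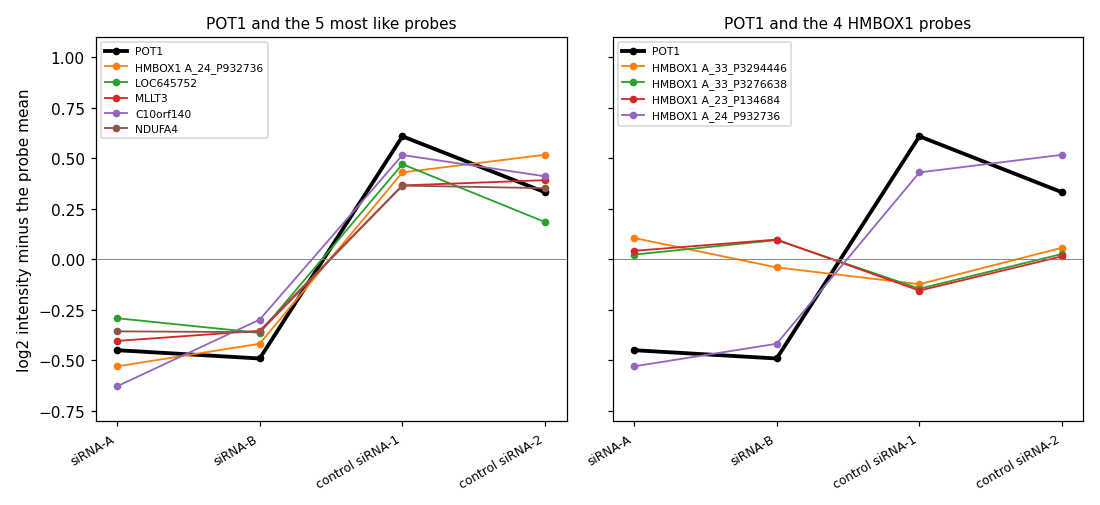
Log2 intensity minus the probe mean (vertical axis) on the 4 arrays, for POT1 with the 5 probes most like it (left) and for POT1 with the 4 HMBOX1 probes (right). A_24_P932736 drops with POT1 on both knockdown arrays, while the other 3 HMBOX1 probes stay between -0.25 and 0.25.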

How the data were processed

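Expression was measured on 4 Agilent 4x44K single-colour arrays. The authors extracted spots with Feature Extraction 10.5.1.1 (submitters' processing notes) and deposited, for every spot, an intensity without background correction or normalization between arrays, identical to the scanner's median pixel value for 100% of spots, and a quality weight, a score deposited without a rule for how it was set. Of each scanner table, 43 of 61 columns were not used. Spots with weight 0 on any array were left out, which kept 33323 of 43118 spots other than controls (26219 probes).

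Log2 intensities were fitted with limma 3.58.1 (R 4.3.3) on weighted means of identical spots, two-sided, without covariates. The threshold for a call was an unadjusted p under 0.005. Adjusted p follow Benjamini and Hochberg and take in every analysed probe. The fit was tested on simulated data. The number of arrays limits the precision.

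Members and gene lists were chosen with earlier results of these data known, among them the decrease of POT1 reported in the paper. Named are all members, called genes of the wider lists, the largest rise and fall of each list, and the 5 probes most like POT1. PARN and the further HMBOX1 probes were named after their values were seen. LYZ and EPCAM had no analysed probe of that name. Probe names and hg19 positions are those of the scanner tables, and RefSeq (GRCh38.p14) was used for the names of related genes only. Alternatives were the background-subtracted signal (scaled to the 75th percentile of each array or not, floor 1), quantile, cyclic loess and normexp (offset 50) normalization, no weights, a filter on dim probes, a variance trend, single spots, the probe with the largest change per gene, and omission of each array.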

Additional observations from a re-analysis of the deposited data

How the results depend on the processing

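POT1 kept its direction in 12 of 12 alternatives (log2 fold change -1.08 to -0.80). The number of member probes called was 1, and between 0 and 1 when an array was left out, with 0 without siRNA-A and 0 without siRNA-B. In the wider lists it was 0, and between 0 and 1 when an array was left out, with TERC called without siRNA-A and PRIM2 without siRNA-B. With the probe of largest change per gene, which is chosen for its change, it was 1 (HMBOX1). Over all 5 TERF1 probes, the widest difference was 0.425 in place of 0.235 with the background-subtracted signal, scaled or unscaled, and these values rest on the probe near background, A_33_P3285444. Without it, a choice made after seeing the data, the widest difference was 0.218, and 0.218 to 0.244 under another signal or normalization. Of the 5 probes most like POT1, 0 were shared when Pearson r replaced the distance. The cause of these changes was not tested, other than that the omissions hold fewer samples. Members that were not called changed sign in places. TINF2 was at 0.0016 with the scaled signal, 0.025 with quantile and 0.019 with loess normalization. TERF2 was at -0.016, TERT at -0.026 and DKC1 at -0.0090 with the unscaled signal. The TERF1 probe A_24_P50458 was at 0.013 with quantile, 0.018 with loess and 0.00023 with normexp normalization, and A_24_P192434 at 0.0014 with quantile normalization. With an array left out, log2 fold changes ranged from -0.079 to 0.055 for A_24_P50458, from -0.060 to 0.13 for A_32_P220696 and from -0.14 to 0.079 for A_24_P192434. They ranged from -0.085 to 0.19 for TERF2, from -0.12 to 0.12 for TERF2IP, from -0.13 to 0.088 for TINF2, from -0.028 to 0.040 for TERT and from -0.048 to 0.16 for DKC1. The fitted values of A_33_P3285444, -0.13 to 0.034 with an array left out, are near background and are not read as a change or as a change of sign. Over all probes 346 were called, 226 with the scaled signal, and 87 and 78 without control siRNA-1 and control siRNA-2. At an adjusted p under 0.05 there were 31, 49 with the filter on dim probes, and 0 in limma under another signal or normalization or with an array left out. No paired analysis was possible because each array held a pool of 5 experiments and the numbers in the labels are those of the siRNAs.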
